A study of Mus musculus with 9 samples.

Results

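Steap proteins are haem-containing membrane reductases that hand electrons to ferric iron and cupric copper, so that the metals can cross membranes. The 9 genes described here are 3 members of that family, Steap1, Steap3 and Steap4, and 6 genes that move or use iron: Trf, Tfrc, Slc11a2, Slc40a1, Hmox1 and Alas1. They were taken by name from 30794 genes that have a row of their own on the array, and each of the 9 had 1 such row, so the choice of the brightest row decided nothing. The set was chosen by the values of Steap4 on the knockout and control arrays, where it was known to be low in knockouts. Its levels and differences are therefore given as a description without a test, and the p-values of the other members say where a fit over all genes places them and are no independent support. Of the 9 genes, 8 passed the filter on low values. Steap1 did not, with a mean of 4.26 over the 9 arrays against a minimum of 5.31 (log2).

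In most cells transferrin, the protein made by Trf, brings iron to the transferrin receptor, the product of Tfrc. The complex is taken into endosomes, a Steap reductase converts the iron, and the divalent metal transporter encoded by Slc11a2 moves it into the cytosol. Ferroportin, from Slc40a1, lets iron out again, and mitochondria spend it on haem, whose synthesis starts with the product of Alas1, and on iron-sulfur clusters of the respiratory chain. Haem oxygenase, from Hmox1, breaks haem down and frees the iron. Brown and beige adipocytes are rich in mitochondria and so in haem and iron-sulfur proteins. In fat Steap4 is known as an adipocyte gene that inflammatory cytokines and feeding induce.

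RNA came from whole inguinal white fat pads of adult mice, with 3 arrays in each of 3 groups. All mice carried the transgenes Adiponectin-rtTA and TRE-Cre and received doxycycline in their chow for 28 days from 8 weeks of age, so the adiponectin promoter drives the activator that switches Cre on. The cold group was Zfp423+/+ control mice kept at 6 °C for the last 14 of these days, the knockout group was Zfp423loxP/loxP mice at room temperature, and the room temperature controls were Zfp423+/+ mice. The question was how far loss of Zfp423, a zinc finger factor that holds white adipocytes in their white state, resembles cold-induced beige fat. No label ties an array to a mouse, so p-values reflect array-to-array spread, part of which can be technical.

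Values are the authors' log2 expression values, and a difference of 1 is a doubling. Zfp423 read 7.56, 8.15 and 8.04 on the knockout arrays, against 8.74, 8.22 and 8.40 on the room temperature control arrays. The difference was -0.53 ± 0.20 (SE; limma adjusted p = 0.256), and no source used here places its probes inside or outside the floxed sequence. Ucp1, the uncoupling protein of thermogenic fat, was higher than in room temperature controls by 6.61 ± 0.47 in the cold and by 6.90 ± 0.47 in the knockouts (limma adjusted p = 0.00227 and 0.00866). Adipocyte markers were bright in all groups, with mean levels over 8 genes of 16.66 to 16.81 in the cold, 15.89 to 16.60 in knockouts and 16.40 to 16.81 in room temperature controls. In every group a single array held the middle value of the group for most genes: cold replicate 2 for 52.9% of genes, knockout replicate 3 for 73.8% and control replicate 3 for 67.4%. Whether these 3 arrays hold RNA independent of the others in their group was not tested. If they do not, n is below 3 and the printed SDs, SEs and p-values are too small. Differences without these arrays are given for the members in the fit and for the iron genes that passed or had the smallest p of a list. Cold replicate 3 carries a slightly different array label, and its skeletal muscle markers stood at -4.34 relative to the control mean.

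Steap4 was the Steap gene that differed widely between groups. Its row read 15.44, 15.15 and 14.87 on the cold arrays, 14.19, 13.61 and 13.85 on the knockout arrays, and 16.08, 15.56 and 15.84 on the room temperature control arrays. The 3 groups did not overlap: knockouts were lowest, the cold lay in between and controls were highest. The knockout mean of 13.88 ± 0.29 differed from the control mean of 15.83 ± 0.26 (SD, n = 3) by -1.95 ± 0.21 (SE), a 3.85-fold lower level, and by -1.92 ± 0.34 without the 3 arrays in between. The cold mean of 15.15 ± 0.28 (SD, n = 3) differed from the control mean by -0.67 ± 0.21 (SE), and by -0.67 ± 0.34 without the 3 arrays in between. It was above the knockout mean by 1.27 ± 0.21, and by 1.26 ± 0.34 without them.

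Adipocyte markers varied among the knockout arrays: relative to the control mean, the 8 markers stood at -0.74, -0.03 and -0.30 in knockout replicates 1, 2 and 3. Steap4 was lowest in knockout replicate 2, the array whose adipocyte markers were nearest the control level. Among the cold arrays and among the control arrays Steap4 stood in the order of these markers. They were at 0.18, 0.14 and 0.04 in cold replicates 1, 2 and 3 and at 0.19, -0.22 and 0.04 in control replicates. With a single array of each group in the middle for most genes, many genes share such an order or its reverse. The part of adipocyte content in the level of Steap4 was not tested. In a whole fat pad, fewer cells of a type and less RNA per cell cannot be told apart.

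The other Steap genes did not separate the groups. Steap3, the endosomal ferrireductase best known from red cell precursors, read 7.55, 7.53 and 7.60 in the cold, 7.53, 7.53 and 7.48 in knockouts and 7.53, 7.45 and 7.53 in room temperature controls. The groups overlapped, and the differences from control were 0.06 ± 0.04 in the cold and 0.01 ± 0.04 in knockouts (SE; limma adjusted p = 0.435 and 0.902), or 0.08 ± 0.06 and 0.04 ± 0.06 without the 3 arrays in between. Steap1, which lacks the NADPH-binding part that the other family members have, read 4.25 on each cold array, 4.24, 4.30 and 4.25 on the knockout arrays and 4.25, 4.37 and 4.25 on the control arrays. Its 9 arrays held 4 distinct values, and the 9 arrays of Steap3 held 6 (after rounding to 4 decimals). Steap2, the remaining family member, was also below the filter. Fitted without the filter, it stood at -0.16 ± 0.08 in the cold and -0.20 ± 0.08 in knockouts against controls (limma adjusted p = 0.374 and 0.406).

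**Figure D1:**
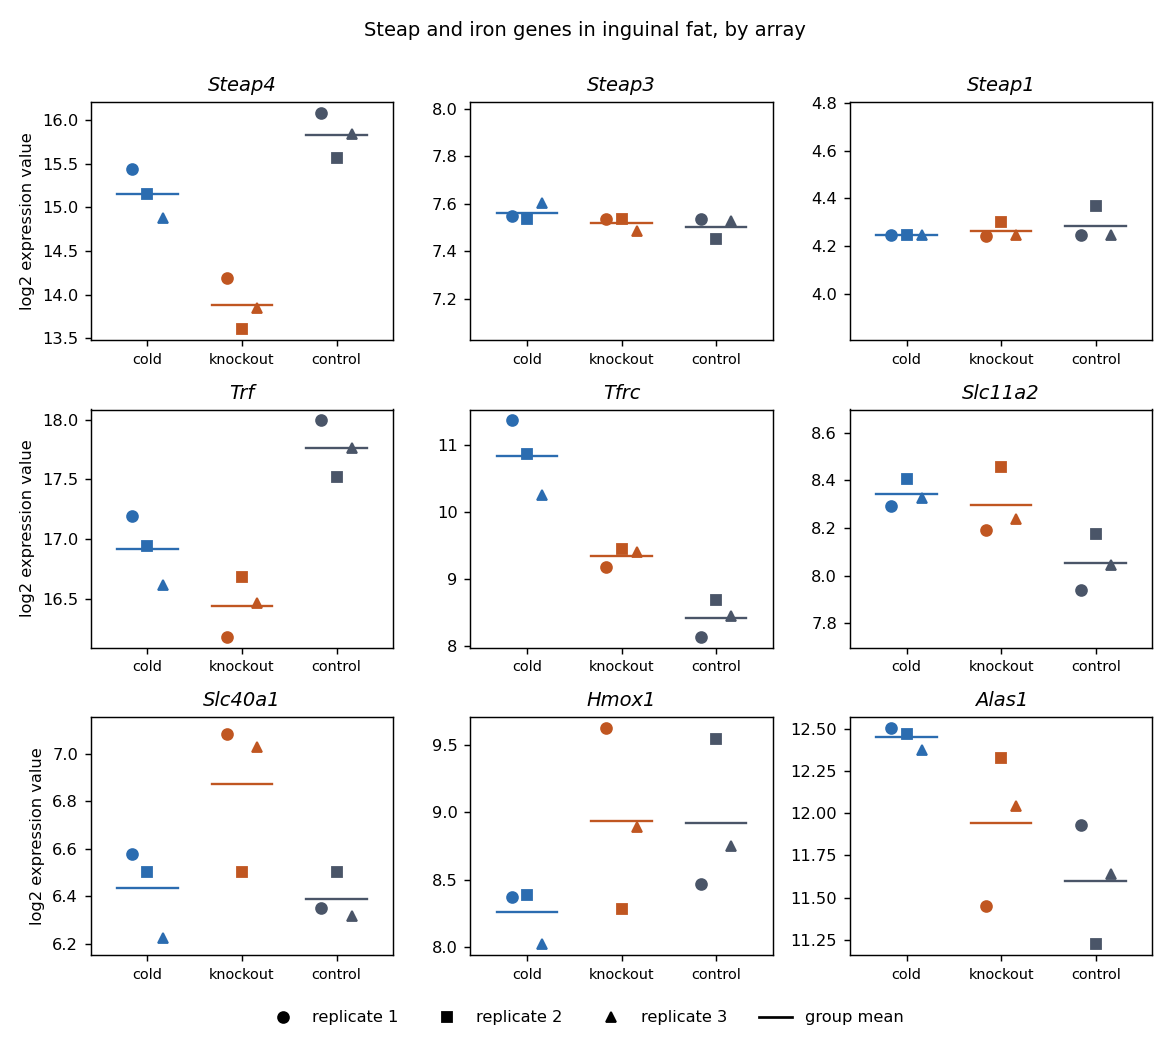
Log2 expression value (vertical axes, each spanning at least 1 unit) of the 9 genes on every array, for cold, knockout and room temperature control groups from left to right. Symbols are replicates and lines are group means. Steap4 lies between 13.61 and 14.19 on the knockout arrays and between 15.56 and 16.08 on the control arrays, and Tfrc lies between 10.25 and 11.38 in the cold, above the other groups.

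Promoter sequences are shown for Steap4, Tfrc and Alas1, the members whose cold or knockout arrays lay wholly apart from the controls and for which RefSeq promoters were at hand. Promoters of 5 of the 9 members were in the table. Each run is the 250 bases before the RefSeq start site farthest upstream, on the strand of the gene, in build GRCm38.p6. They lie at chr5:7960222-7960471 (plus strand) for Steap4, chr16:32608646-32608895 (plus strand) for Tfrc and chr9:106247955-106248204 (minus strand) for Alas1. Capitals mark matches, on either strand, to 4 motifs: C/EBP (TTGCNNAA), the hypoxia response core (ACGTG), the cyclic AMP response core (TGACG) and the antioxidant response core (TGACNNNGC), of which the last 2 share their first 4 letters.
Steap4: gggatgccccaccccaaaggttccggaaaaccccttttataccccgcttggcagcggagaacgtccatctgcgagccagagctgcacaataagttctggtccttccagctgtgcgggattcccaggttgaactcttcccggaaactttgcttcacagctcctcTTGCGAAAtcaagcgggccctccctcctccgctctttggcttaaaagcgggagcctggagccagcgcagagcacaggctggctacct
Tfrc: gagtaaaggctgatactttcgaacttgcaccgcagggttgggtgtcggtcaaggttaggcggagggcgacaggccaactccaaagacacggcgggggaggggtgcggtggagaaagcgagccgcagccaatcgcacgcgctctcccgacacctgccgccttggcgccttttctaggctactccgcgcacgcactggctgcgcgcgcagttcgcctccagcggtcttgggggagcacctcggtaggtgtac
Alas1: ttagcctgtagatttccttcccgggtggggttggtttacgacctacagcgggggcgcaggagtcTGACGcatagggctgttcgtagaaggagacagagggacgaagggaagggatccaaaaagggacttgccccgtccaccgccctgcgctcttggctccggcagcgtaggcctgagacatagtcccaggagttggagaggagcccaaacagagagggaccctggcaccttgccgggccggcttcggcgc
The Steap4 window held 1 C/EBP match, from base -87 to -80 relative to the start site, and 9.56% of 32851 windows of the same length hold at least 1. The Alas1 window held a cyclic AMP response core from base -186 to -182, which 17.8% of windows hold. The Tfrc window held none of the 4. The hypoxia response core and the antioxidant response core were in 16.6% and 10.2% of windows. A match of letters is a description and does not show that a factor binds there. GC content was 58.4% for Steap4, 64.8% for Tfrc and 62.4% for Alas1.

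Transferrin followed the same order of groups as Steap4. Trf read 17.20, 16.94 and 16.61 in the cold, 16.18, 16.68 and 16.46 in knockouts and 18.00, 17.52 and 17.76 in room temperature controls. Both cold and knockout arrays lay below every control array, while cold and knockout overlapped. The knockout difference was -1.32 ± 0.20 (SE), a 2.49-fold lower level (limma adjusted p = 0.0522), and the cold difference -0.84 ± 0.20, a 1.79-fold lower level (limma adjusted p = 0.0921). Neither passed the threshold of 0.05 over 16955 genes. Without the 3 arrays in between the values were -1.33 ± 0.32 in knockouts and -0.85 ± 0.32 in the cold. The knockout difference passed in 2 of the 9 fits that leave out 1 array, without control replicate 2 or knockout replicate 1. Leaving aside array weights, it passed in 2 of the 9 other alternatives, a stricter filter on low values and quantile normalization. Where it passed, the limma adjusted p was between 0.0331 and 0.0482. Over the 9 fits that leave out 1 array it ran from 0.0331 to 0.24.

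The Trf row was lowest in knockout replicate 1, where adipocyte markers were lowest too, and it was also below every control array in knockout replicate 2, where they were near the control level. Knockout replicate 3 held the middle value for most genes, so many genes are lowest in knockout replicate 1 or in knockout replicate 2. The part of adipocyte content in the level of Trf was not tested.

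The transferrin receptor went the other way. Tfrc read 11.38, 10.88 and 10.25 in the cold, 9.19, 9.45 and 9.41 in knockouts and 8.13, 8.69 and 8.44 in room temperature controls. All 3 groups were apart, with the cold highest, the knockouts in between and the controls lowest. Tfrc rose in the cold by 2.41 ± 0.28 (SE), a 5.33-fold change (limma adjusted p = 0.0129), with group means of 10.84 ± 0.56 and 8.42 ± 0.28 (SD, n = 3 each). In knockouts the difference from controls was 0.93 ± 0.28 (1.90-fold), which missed the threshold (limma adjusted p = 0.178), and it was 0.91 ± 0.45 without the 3 arrays in between. The cold exceeded the knockouts by 1.49 ± 0.28, which tests the difference between both effects, since the shared controls drop out (limma adjusted p = 0.0448).

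The cold rise of Tfrc passed in 6 of the 9 fits that leave out 1 array and missed the threshold without control replicate 1, control replicate 3 or cold replicate 2 (limma adjusted p = 0.0506, 0.0817 and 0.0894). Without the 3 arrays in between it was 2.40 ± 0.45 (limma adjusted p = 0.816), a fit in which 0 of 16955 genes passed and 790 had an unadjusted p under 0.05. The excess over knockouts was 1.496 ± 0.45 without these arrays. With 1 array left out at a time it passed in 4 of 9 fits and ranged over the 9 from 1.22 to 1.78 (limma adjusted p between 0.033 and 0.179). Dividing lymphocytes also carry the receptor, and T cell and B cell markers stood at -0.87 to -1.08 and -1.90 to -0.75 on the cold arrays relative to the control mean. In knockout replicates 1, 2 and 3 T cell markers stood at 1.51, -0.24 and 0.85 and B cell markers at 0.53, -1.03 and -0.14. The part of these cells in the level of Tfrc was not tested. Within each group, thermogenic markers stood in the order of Tfrc. Relative to the control mean they were at 4.39, 4.13 and 3.88 in cold replicates 1, 2 and 3. In knockout replicates they were at 2.92, 5.64 and 4.76, and in control replicates at -0.39, 0.32 and 0.08. Skeletal muscle markers stood in that order too, and the other marker sets did not in every group. Since a single array held the middle value of each group for most genes, many genes stand in this order or its reverse. The part of thermogenic or muscle content was not tested either. Of 11 red cell markers, 1 was kept, Alas2, the red cell isoform of Alas1, at 7.78 to 8.13 in the cold, 7.78 to 7.84 in knockouts and 7.31 to 7.78 in controls.

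Slc11a2, the endosomal iron transporter, shifted by less. It read 8.29, 8.41 and 8.33 in the cold, 8.19, 8.46 and 8.24 in knockouts and 7.94, 8.17 and 8.04 in room temperature controls. Both groups lay just above every control array, and they overlapped with each other. The differences from control were 0.29 ± 0.09 in the cold and 0.24 ± 0.09 in knockouts (SE), and neither passed (limma adjusted p = 0.147 and 0.234). They were 0.25 ± 0.13 and 0.27 ± 0.13 without the 3 arrays in between.

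**Figure D2:**
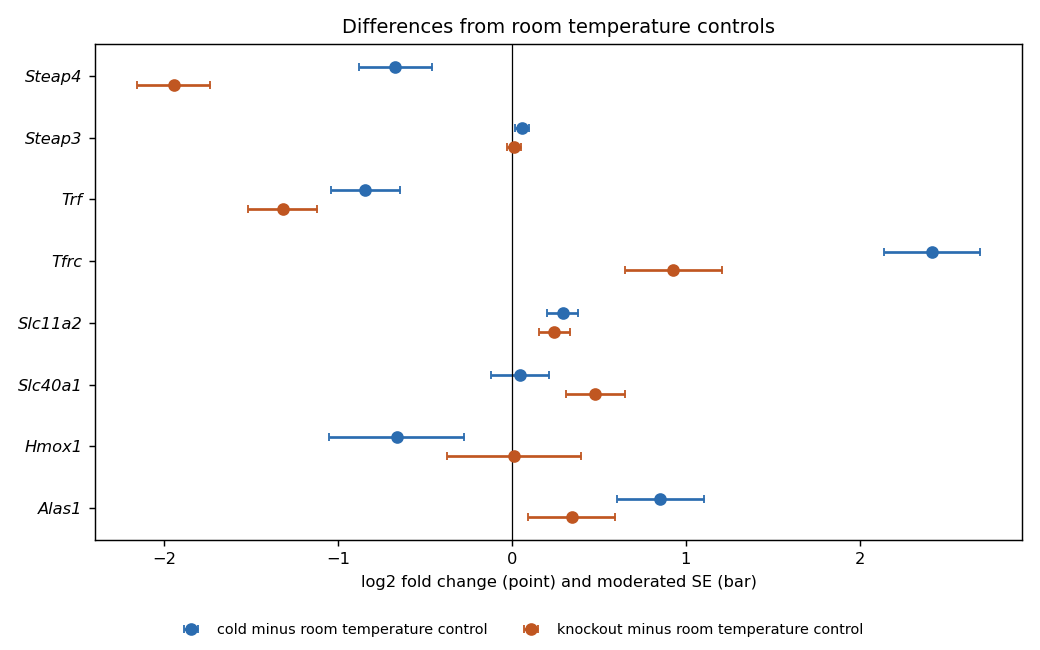
Difference from room temperature controls on the log2 scale (horizontal axis) for the 8 genes that passed the filter, with cold above knockout in each pair. Points are fold changes and bars moderated standard errors. Tfrc stands at 2.41 in the cold and 0.93 in knockouts, and Steap4 at -0.67 in the cold and -1.95 in knockouts.

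Ferroportin, the iron exporter, was not separated between the groups. Slc40a1 read 6.58, 6.50 and 6.22 in the cold, 7.08, 6.50 and 7.03 in knockouts and 6.35, 6.50 and 6.32 in room temperature controls. Knockout replicates 1 and 3 were above all other arrays, and replicate 2 held the same value as an array of each other group. The differences from control were 0.04 ± 0.17 in the cold and 0.48 ± 0.17 in knockouts (SE; limma adjusted p = 0.908 and 0.223), or -0.02 ± 0.25 and 0.37 ± 0.25 without the 3 arrays in between.

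Hmox1, the enzyme that opens the haem ring, varied as much within groups as between them. It read 8.37, 8.39 and 8.02 in the cold, 9.63, 8.28 and 8.89 in knockouts and 8.47, 9.55 and 8.75 in room temperature controls. The cold arrays lay below every control array, while knockouts and controls overlapped fully. The differences from control were -0.66 ± 0.39 in the cold and 0.01 ± 0.39 in knockouts (SE), and neither passed (limma adjusted p = 0.364 and 1). They were -0.81 ± 0.62 and -0.05 ± 0.62 without the 3 arrays in between. The knockout difference ran from -0.34 without knockout replicate 1 to 0.34 without knockout replicate 2.

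Macrophage markers stood in the order of Hmox1 on the knockout and control arrays and not on the cold arrays. Of 14 markers 13 were measured above the filter, and their mean level ran from 8.42 to 8.69 in the cold, 8.62 to 10.41 in knockouts and 9.22 to 10.35 in room temperature controls. Relative to the control mean they stood at -1.37, -1.18 and -1.10 in cold replicates 1, 2 and 3, at 0.63, -1.17 and -0.10 in knockout replicates and at -0.57, 0.57 and 0.00 in control replicates. The knockout and the control array with the highest Hmox1, replicates 1 and 2, were also those with the highest macrophage level, and the lowest arrays of these groups matched as well. In the cold, replicate 3 had the lowest Hmox1 and the highest macrophage level. Slc40a1, which macrophages also express, was highest in knockout replicate 1, and neutrophil markers stood at 1.87, -0.31 and 1.33 in knockout replicates 1, 2 and 3. T cell, B cell and neutrophil markers also stood in the order of Hmox1 on the knockout and control arrays, and not on the cold arrays. Replicate 3 held the middle value for most genes in knockouts and in controls. Within each of these groups most genes therefore stand in this order or its reverse. The part of any of these cells in the levels of Hmox1 and Slc40a1 was not tested.

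**Figure D3:**
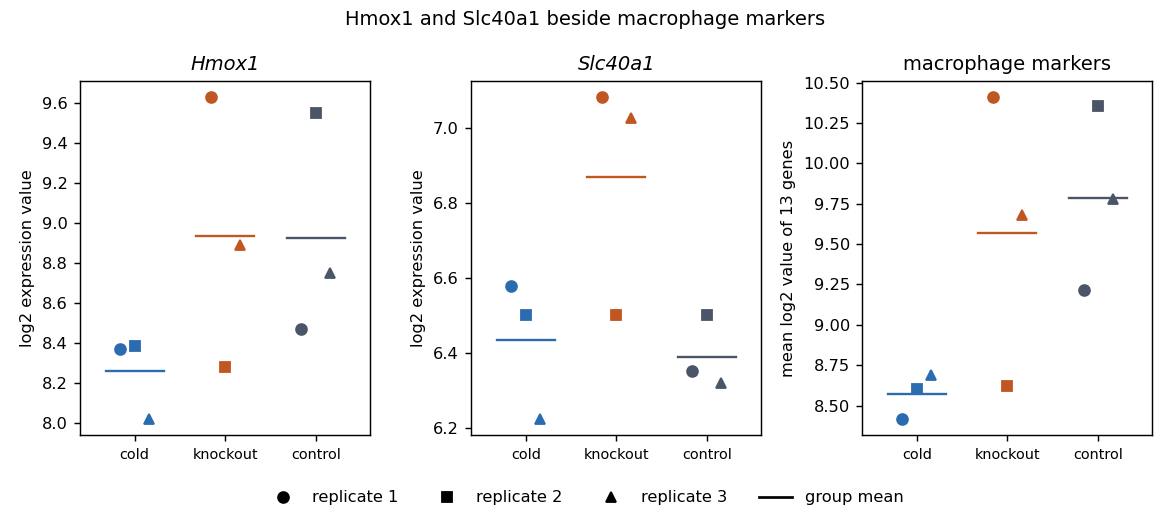
Hmox1, Slc40a1 (log2 expression value) and the mean log2 value of 13 macrophage markers on each array, with cold, knockout and room temperature control groups from left to right. Symbols are replicates and lines group means. Knockout replicate 1 is the highest knockout array in all 3 panels and control replicate 2 the highest control array.

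Alas1, the first and rate-limiting enzyme of haem synthesis outside red cell precursors, was high and even on the cold arrays. It read 12.51, 12.47 and 12.38 in the cold, 11.45, 12.33 and 12.04 in knockouts and 11.93, 11.22 and 11.64 in room temperature controls. The cold lay above every array of the other groups, and the knockouts overlapped the controls. The cold difference from control was 0.85 ± 0.25 (SE), a 1.81-fold higher level that missed the threshold (limma adjusted p = 0.14). The knockout difference was 0.34 ± 0.25 (limma adjusted p = 0.54). The cold and knockout differences were 0.87 ± 0.40 and 0.31 ± 0.40 without the 3 arrays in between. Adipocyte markers stood in the order of Alas1 in all 3 groups, at 0.18, 0.14 and 0.04 in cold replicates 1, 2 and 3, at -0.74, -0.03 and -0.30 in knockout replicates and at 0.19, -0.22 and 0.04 in control replicates, relative to the control mean. Thermogenic markers stood in that order in the cold (4.39, 4.13 and 3.88) and in knockouts (2.92, 5.64 and 4.76), and in the opposite order in controls (-0.39, 0.32 and 0.08). Endothelial markers stood in the order of Alas1 in every group as well. They were at 0.31, 0.19 and 0.02 in cold replicates 1, 2 and 3. In knockout replicates they were at -0.71, 0.06 and -0.29, and in control replicates at 0.23, -0.22 and -0.002. A single array held the middle value of each group for most genes, so many genes stand in this order or its reverse. The part of any of these marker sets in the level of Alas1 was not tested.

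Steap4 is left out of the following counts, since its values chose the set. Of the 7 other members that passed the filter, 0 passed the threshold in the knockouts against controls in limma, beside 0.366% of all 16955 genes, 0.224% higher and 0.142% lower. An unadjusted limma p under 0.05 was reached in this comparison by 4 of the 7, beside 2743 of all 16955 genes. In the cold 1 passed (Tfrc, higher), beside 1.51% of all genes, 1.32% higher and 0.195% lower. In cold against knockouts 1 passed (Tfrc, higher), beside 2.41% of all genes, 1.25% higher and 1.16% lower. In the cold against controls the arrays did not overlap for 5 of the 7, 3 higher and 2 lower, beside 32.7% of all genes (14.6% higher, 18.1% lower). In knockouts against controls they did not overlap for 3 of the 7, 2 higher and 1 lower, beside 17.4% (9.32% higher, 8.03% lower). In cold against knockouts they did not overlap for 2 of the 7, both higher, beside 32.3% (12.3% higher, 20.0% lower). As the set was put together with these values known, nothing is read from these counts. The cold and knockout comparisons share the 3 control arrays.

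The wider iron pathway was taken from lists of genes by role, 81 genes in all, of which 67 were kept, 59 of them other than the members. In the cold 2 of these 59 rose and 1 fell, beside 1.32% higher and 0.195% lower of all genes. In knockouts against controls 0 of the 59 passed in limma, beside 0.366% of all genes, with 18 of the 59 and 2743 of the 16955 at an unadjusted p under 0.05. In cold against knockouts 0 rose and 2 fell, beside 1.25% higher and 1.16% lower of all genes. Their median difference was 0.02 in the cold and -0.01 in knockouts, against -0.02 and 0.02 over all genes tested. The arrays did not overlap for 47.5% of the 59 in the cold against controls, beside 32.7% of all genes, for 30.5% in knockouts against controls, beside 17.4%, and for 27.1% in cold against knockouts, beside 32.3%. The lists were chosen with earlier results of these data known, so nothing is read from these shares or from those of single lists.

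Mitochondrial iron import and iron-sulfur assembly held both genes that rose. Of 17 genes, 11 lay wholly above controls in the cold and 1 wholly below, beside 14.6% higher and 18.1% lower of all genes. In knockouts 5 of the 17 lay wholly above controls and 0 wholly below, beside 9.32% higher and 8.03% lower. The list median was 0.34 in the cold and 0.14 in knockouts. Abcb10, a mitochondrial inner membrane transporter tied to haem synthesis, read 6.937, 6.956 and 7.001 in the cold, 6.735, 6.802 and 6.734 in knockouts and 6.677, 6.567 and 6.599 in controls. It rose in the cold by 0.35 ± 0.04 (SE; limma adjusted p = 0.0164), and stood at 0.14 ± 0.04 in knockouts (limma adjusted p = 0.188). Bola3, which helps deliver iron-sulfur clusters to mitochondrial enzymes, rose in the cold by 0.56 ± 0.10 (limma adjusted p = 0.0429) and stood at 0.42 ± 0.10 in knockouts (limma adjusted p = 0.0982). These calls held in 3 and 2 of the 9 fits that leave out 1 array. Without the 3 arrays in between the cold differences were 0.35 ± 0.07 for Abcb10 and 0.58 ± 0.13 for Bola3.

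In haem synthesis 0 of the 9 other genes passed in any of the 3 comparisons, and the list median was 0.31 in the cold and 0.13 in knockouts. Tmem14c, which passes a haem precursor into the mitochondrial matrix, had the smallest p of the list. It read 11.97, 11.96 and 11.71 in the cold, 11.30, 12.35 and 11.72 in knockouts and 10.61, 10.81 and 10.74 in controls. Both groups lay wholly above the controls, by 1.16 ± 0.24 in the cold and 1.07 ± 0.24 in knockouts (SE; limma adjusted p = 0.0695 and 0.0967), or 1.13 ± 0.39 and 1.11 ± 0.39 without the 3 arrays in between.

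Among genes of haem capture, breakdown and sensing, 1 of 10 others fell in the cold. Bach1, a haem-responsive repressor that binds the Hmox1 gene, read 8.73, 8.62 and 8.58 in the cold, 8.84, 8.72 and 8.82 in knockouts and 9.08, 9.17 and 9.13 in controls. It fell in the cold by 0.49 ± 0.06 (SE; limma adjusted p = 0.0135, passing in 6 of the 9 fits that leave out 1 array) and stood at -0.33 ± 0.06 in knockouts (limma adjusted p = 0.0613), with -0.47 ± 0.09 and -0.34 ± 0.09 without the 3 arrays in between. The list median was -0.01 in the cold and -0.49 in knockouts, and 5 of the 10 lay wholly below the controls in knockouts, beside 8.03% of all genes. Haptoglobin (Hp), an adipocyte and liver protein that binds free haemoglobin, is named here after its values were seen. It read 15.80, 15.66 and 15.23 in the cold, 15.59, 14.60 and 15.13 in knockouts and 16.58, 16.14 and 16.36 in controls. Cold and knockout arrays lay below every control array, by -0.79 ± 0.26 and -1.25 ± 0.26 on the log2 scale, and neither difference passed (limma adjusted p = 0.173 and 0.0873).

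Among the other genes of uptake (6), export (4), storage (5) and regulation (7), 0 passed in limma in the cold or in knockouts against controls. Their list medians were -0.08, -0.11, -0.03 and 0.09 in the cold and -0.11, -0.27, -0.01 and -0.02 in knockouts. Cyb561a3, a metalloreductase outside the Steap family, stood at -0.54 in the cold and -0.15 in knockouts. The ferritin heavy chain gene Fth1, also named after its values were seen, read between 16.34 and 16.39 on the 9 arrays. This evenness depended on the processing. In cold against knockouts the Fth1 difference was 0.01 in the main fit. It ran from -0.0008 to 0.34 over the alternatives described at the end, leaving aside array weights and the fits that leave out 1 array. Pcbp2, an RNA-binding protein that also carries iron to ferritin, was lower in the cold than in knockouts (log2 change -0.20 ± 0.03, SE, limma adjusted p = 0.0391), and the call held in 3 of the 9 fits that leave out 1 array. Flvcr1, a haem exporter, was also lower in the cold than in knockouts (log2 change -0.36 ± 0.07, limma adjusted p = 0.0499), and its call held in 1 of those 9 fits. Without the 3 arrays in between the differences were -0.19 ± 0.05 for Pcbp2 and -0.44 ± 0.07 for Flvcr1. Aco1, cytosolic aconitase and an iron regulatory protein, had the smallest p of the regulation list, at 0.32 ± 0.11 for cold against knockouts (limma adjusted p = 0.131), or 0.31 ± 0.18 without those arrays.

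**Figure D4:**
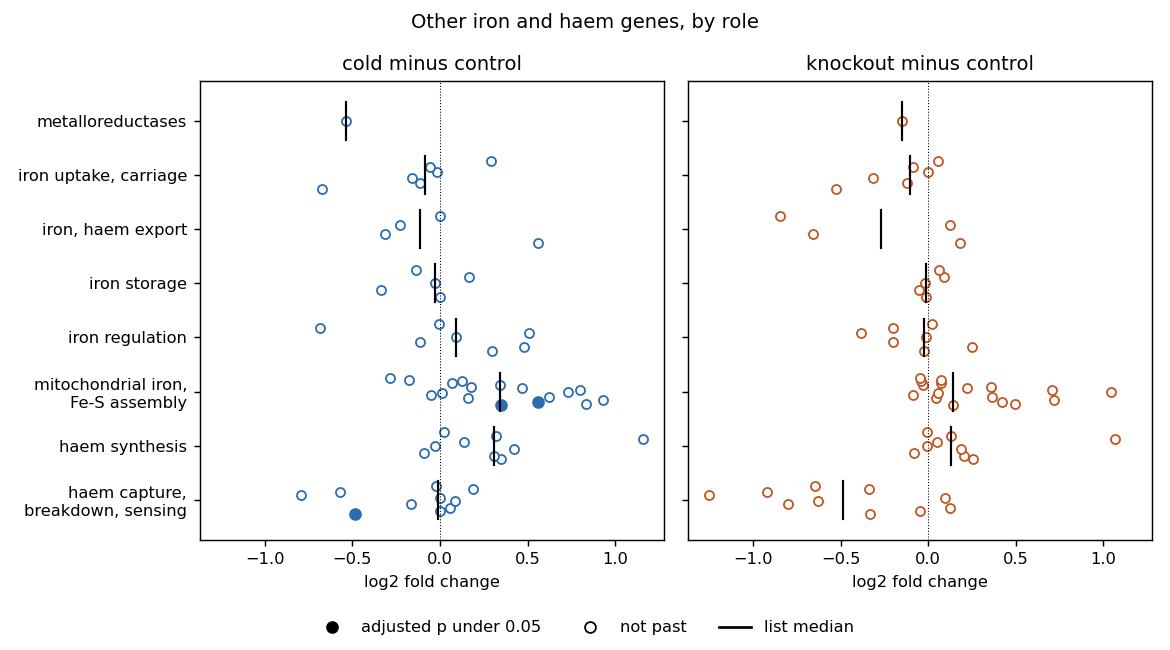
Log2 fold change from room temperature controls (horizontal axes) of the 59 iron and haem genes other than the members, by role, for the cold (left) and knockouts (right). Each circle is a gene, filled where the adjusted p was under 0.05, and bars are list medians. The filled points are Abcb10, Bola3 and Bach1 in the cold, and no gene is filled in knockouts.

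Over the 9 arrays, the genes whose values followed Steap4 most closely were Tmem43 (Pearson r = 0.995), which encodes a nuclear membrane protein, and Pygb (0.98), a glycogen phosphorylase. They were followed by the endocytic regulator Rin2 (0.972), the collagen chain Col6a3 (0.971) and the amino acid transporter Slc43a1 (0.968). The 9 points fall into 3 groups, with Steap4 means of 13.88, 15.15 and 15.83 beside SDs of 0.26 to 0.29 within groups. So r mostly describes group differences. As the 5 genes were picked by r, their order of group means largely follows from the choice. In knockouts against controls these 5 genes stood at -1.62, -0.99, -0.57, -0.95 and -1.42 in that order, and in the cold at -0.49, -0.23, -0.18, -0.48 and -0.59. Trf correlated with Steap4 at 0.879, rank 171 of 16888 genes, and Tfrc at -0.18.

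**Figure D5:**
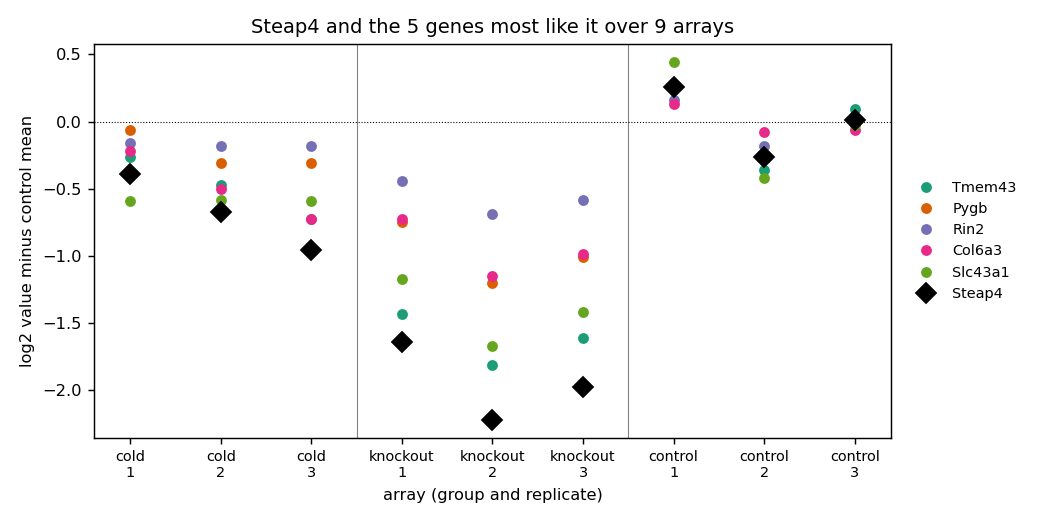
Log2 value minus the mean of the 3 room temperature controls (vertical axis) of Steap4 (diamonds) and the 5 genes with the highest Pearson correlation with it, on each array of the cold, knockout and control groups. In all 6 genes the knockout mean is lowest and the cold mean lies between the knockout and control means, though a cold array of Col6a3 reaches the knockout range. The 5 genes were picked by this correlation, so their order of means largely follows from the choice.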

How the data were processed

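Total RNA of 9 inguinal fat samples was hybridised to Affymetrix mouse transcriptome arrays, 1 array each. The log2 values were deposited by the authors for 72688 rows. They were made with Affymetrix Expression Console, per the submitters' processing notes, and no source used here gives its version, normalization or genome build. The range of the values (1.84 to 19.93) is the basis for reading the scale as log2. Counts and detection calls were not among the values, and 3 arrays a group limit the precision.

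Gene names came from the platform annotation, with symbols updated by Entrez ID from the RefSeq table of GRCm38.p6; 31223 rows had 1 gene. Kept were rows with a mean at or above the table's median row mean (5.31), the brightest row per gene, which left 16955 genes. limma 3.58.1 in R 4.3.3 (lmFit, eBayes) fitted 3 group means over all 9 arrays (6 residual and 1.23 prior degrees of freedom), with two-sided tests and Benjamini-Hochberg adjustment over all genes at 0.05. The fit was tested on simulated data.

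Members and lists were chosen with earlier results of these data known. Named are the members, the iron genes past the threshold in any comparison or, for a list without one, the gene with the smallest p, and the 5 genes most like Steap4, with predicted genes, small RNAs and receptor segments left out. Groups came from the sample titles. The alternatives are described at the end.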

Additional observations from a re-analysis of the deposited data

How the results depend on the processing

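The direction and size of the member differences changed less than their p-values: 442 of 456 values over 19 alternatives kept their sign, and 395 stayed on the same side of the threshold or, where never called, within 1 replicate SD. Most of the 456 belong to differences that the main fit did not call. Beyond the 395, 34 lost a call of the main fit, 21 gained a call, 5 moved by 1 replicate SD or more and 1 reversed its sign with a call. All these tallies include Steap4, and they include the array weights fit, which did not converge and whose calls are not used. For counts, the order is knockouts against controls, cold against controls and cold against knockouts. In the main fit Steap4, whose values chose the set, is the only iron gene of the first comparison and is counted in the third. Nothing is read from its calls, here or in the alternatives. Against 62, 256 and 408 genes (1, 4 and 4 of the iron lists, counting Steap4 except in cold against controls), omitting the filter on low values gave 14, 130 and 222 genes (0, 3 and 1), eBayes with trend and robust gave 37 genes for the first comparison and 1 iron gene for the third, and quantile normalization gave 401 genes for the second and 3 iron genes for the first. A filter at the 60th percentile gave 2 iron genes for the first. Fitting only the 2 groups compared gave 0, 1349 and 352 genes (0, 9 and 0 iron genes, limma, with an unadjusted p under 0.05 for 1958 genes and 16 iron genes in the first and for 19 iron genes in the third). Leaving out 1 array at a time gave 0 to 826, 23 to 988 and 14 to 2716 genes, and 0 to 8, 0 to 10 and 0 to 12 iron genes. The lowest count of the first comparison came without knockout replicate 3 or cold replicate 2 (unadjusted p under 0.05 for 1970 and 2297 genes) and the highest without knockout replicate 1. In the second the lowest came without control replicate 3 or cold replicate 2 and the highest without knockout replicate 2. In the third the lowest came without knockout replicate 3 and the highest without knockout replicate 2. Without the 3 arrays in between, an alternative chosen after seeing the data, limma called 0, 0 and 0 genes and 0 iron genes in each (unadjusted p under 0.05 for 691, 790 and 989 genes and for 9, 8 and 6 iron genes); that fit has fewer arrays and drops those nearest their group means. Array weights gave 11877, 9010 and 10017 genes (54, 43 and 45 iron genes), but the estimation of the weights did not converge, so these calls are not used; Steap3 then stood at -0.041 in knockouts against controls, the reverse of its 0.01.

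When replicate number entered the fit as a replicate block, 1, 42 and 36 genes passed (0, 0 and 1 iron genes, with 18 and 24 iron genes at an unadjusted p under 0.05 in the first 2), and the cold rise of Tfrc had a limma adjusted p of 0.0692. Deviations of same-numbered arrays correlated at -0.46, -0.46 and 0.03 between knockouts and controls, at 0.05, 0.05 and 0.01 between cold and controls and at -0.24, 0.02 and 0.09 between cold and knockouts. As 1 array of each group holds the middle value for most genes, these correlations cannot tell whether equal numbers pair the samples. Except where the construction of a fit is named, the cause of these shifts was not tested.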
